A study of Mus musculus with 4 samples.

Results

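Transcripts of radial glia and astrocytes were followed through RNA sequencing of sorted brain endothelial cells from newborn mice. They comprised 33 genes chosen by symbol as markers of these glia, of 21578 genes in the joined tables, and all 33 were listed. The cells came from C57BL/6 mice at postnatal day 0. Pd1fl/fl mice carry floxed alleles of Pd1 (Pdcd1, the immune checkpoint receptor PD-1) and served as controls, and Pd1cKO-Tie2 mice carry the same floxed alleles with Tie2-Cre. This Cre is driven in endothelial cells and also acts in hematopoietic cells. Each genotype had 2 libraries, and nothing states whether a library came from a single mouse or from pooled mice, so p-values measure only the spread between these libraries.

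Radial glia are the stem cells of the developing cortex. Their processes span the cortical wall and touch its vessels, and around birth many of them turn into astrocytes. Astrocytes later wrap vessels with end-feet, clear glutamate from synapses and supply lipids. Notch signaling through Hes genes and the Sox and Pax6 transcription factors keep radial glia as progenitors. Aquaporin and the glutamate transporter Slc1a2 mark the astrocyte state, whereas the glutamate transporter Slc1a3 is found in radial glia too. A sort for endothelial cells is meant to leave these cells out, so the values below are the levels of glial marker genes in the sorted samples. Some of these genes, such as Sparcl1, Glul, Vim and Nes, are also expressed by endothelial cells. In such bulk samples, fewer glial cells, less RNA per glial cell and expression by other cells cannot be told apart.

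Library totals were 13715837 to 14359990 counts for Pd1fl/fl, and for Pd1cKO-Tie2 they were 14157027 to 24147311 counts. Levels are given as CPM, counts per 1000000 after scaling by the TMM method, which corrects each library for its composition. Where no read was counted, the upper limit is taken as 3 counts, or 0.126 to 0.220 CPM, for counting error only. Pdcd1 had 32 counts in Pd1fl/fl library 1 and 0 in the 3 others, so the deletion could not be checked against Pd1fl/fl library 2. Xist, a transcript of female cells, had a fitted log2 fold change of 14.32 (standard error 2.4) for Pd1cKO-Tie2 over Pd1fl/fl. The labels used here give no sex, so sex cannot be told apart from genotype. Its part in the differences below was not tested. All 20 endothelial markers listed were present in every library, and their sum lay between 18607 and 24725 CPM. The second Pd1cKO-Tie2 library bears a column number that no sample label has, and it is known by its genotype alone.

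Most of the glial transcripts were lower in Pd1cKO-Tie2 than in Pd1fl/fl samples. The median log2 fold change was -0.50 over the 32 members that passed the filter on low counts, against -0.004 over all 15909 tested genes, and 25 of the 32 were below 0 (50.4% of all tested genes). Under the study's rule for a call (a change of 2-fold or more, unadjusted p up to 0.05), Hes5 and Fabp7 fell and Hopx rose. This is 2 members lower (background 2.61% of tested genes) and 1 higher (background 1.41%), or 3 of 32 in either direction (background 4.02%). Without regard to p, 5 members were lower by 2-fold or more (background 10.6%) and 1 was higher by as much (background 6.71%). None had an adjusted p under 0.05 in edgeR's quasi-likelihood test, whose smallest adjusted p among the members was 0.735. The same held for all 15909 tested genes, of which 0 passed and whose smallest adjusted p was also 0.735. The adjusted edgeR p-values therefore set no member apart from other genes. The unadjusted p was under 0.05 for 9 members (background 6.39%), namely Slc1a3, Hes5, Hopx, Gfap, Fabp7, Ptprz1, Ncan, Aldoc and Pla2g7. The same rule with DESeq2, run on all genes with a count, called 3 members lower and 1 higher (background 4.34% in either direction). Hopx, with 0 and 1 reads in controls, passed the filter only through the Pd1cKO-Tie2 libraries. Its call and its p-values, in edgeR and DESeq2 alike, therefore describe where it was detected and support no direction of the members. DESeq2 gave an adjusted p under 0.05 for Slc1a3, Hopx, Fabp7 and Ptprz1 (background 0.672%). Both Pd1cKO-Tie2 libraries lay below both Pd1fl/fl libraries in 16 of the 32 tested members (background 18.1%) and above them in 4 (background 17.7%), so that 35.8% of all tested genes and 20 of these members had genotypes that did not overlap. With 2 libraries against 2, the smallest two-sided p that an exact permutation test can give is 0.333.

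**Figure D1:**
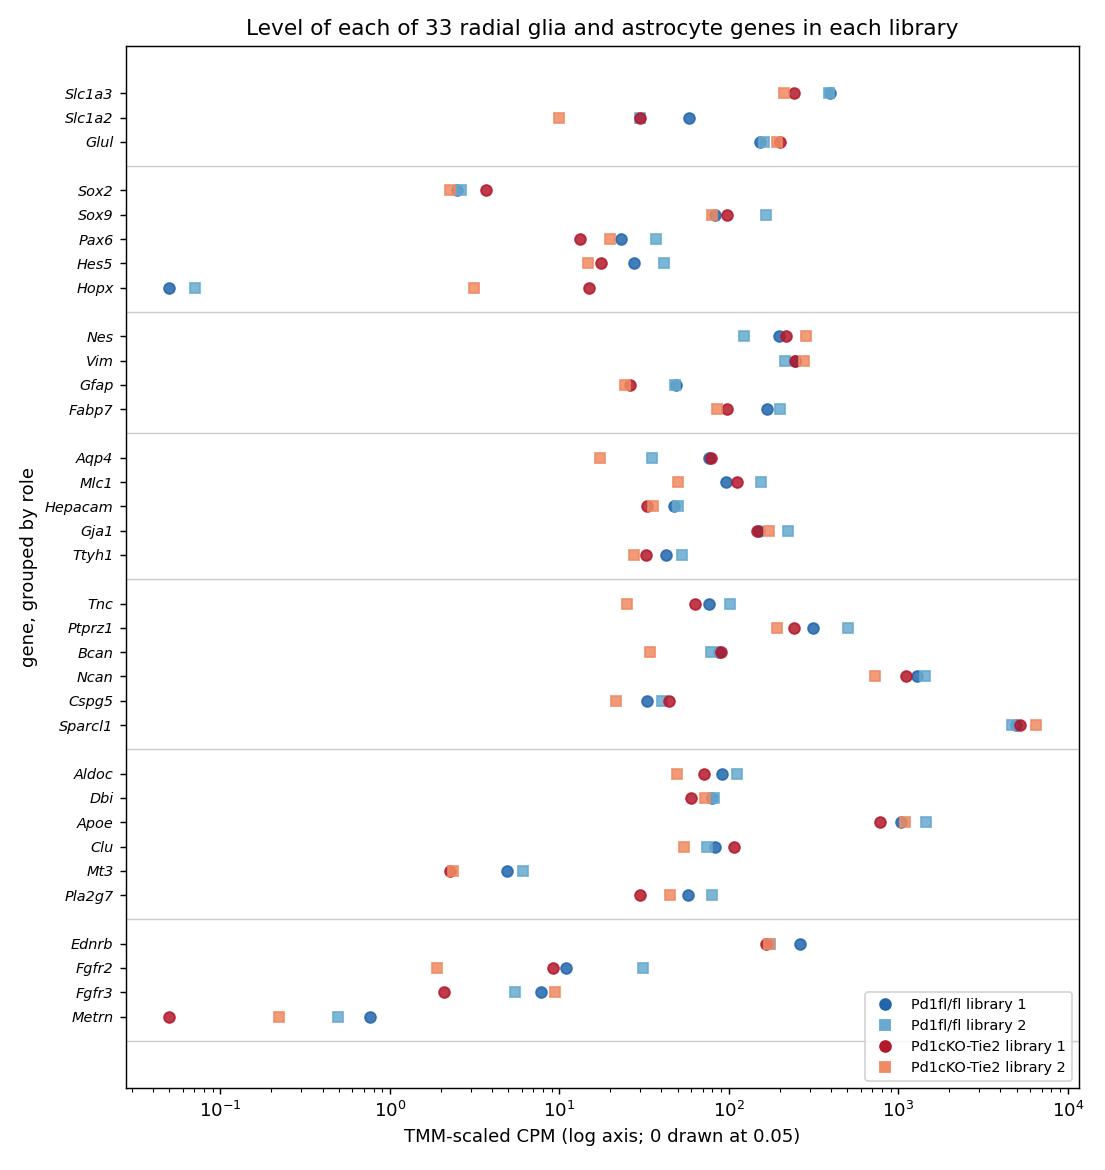
TMM-scaled CPM (log axis) of each of the 33 genes, grouped by role, with 1 point per library (blue, Pd1fl/fl; red, Pd1cKO-Tie2). The blue points of Slc1a3, near 390 CPM, lie apart from the red points at 242 and 211 CPM, while those of Sparcl1 lie among the highest levels of the plot, at 4672 CPM and above.

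The call counts depended on single libraries. Lower calls numbered 7 without Pd1fl/fl library 1 and 10 without Pd1cKO-Tie2 library 1, where 2.22% and 3.24% of all tested genes were called lower. They numbered 1 without Pd1fl/fl library 2 (background 2.19%) and 1 without Pd1cKO-Tie2 library 2 (background 2.86%). Higher calls numbered 2 without Pd1fl/fl library 1 (background 1.81%), 1 without Pd1fl/fl library 2 (background 2.73%), 0 without Pd1cKO-Tie2 library 1 (background 0.797%) and 1 without Pd1cKO-Tie2 library 2 (background 0.953%). Whichever library was left out, 22 to 26 of the 32 members were below 0.

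**Figure D2:**
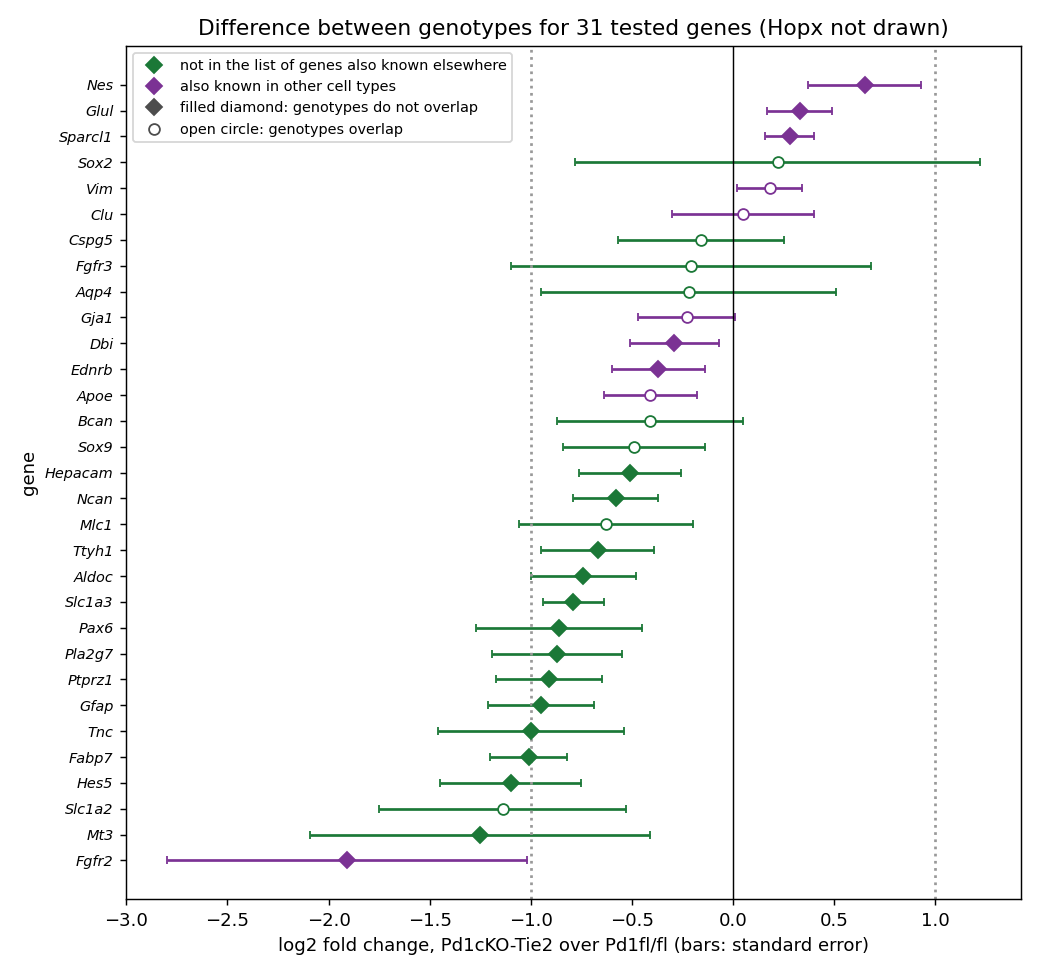
Log2 fold change of Pd1cKO-Tie2 over Pd1fl/fl with its standard error for 31 tested genes, with filled diamonds where the libraries of the genotypes do not overlap and dotted lines at 2-fold. Fgfr2 has the lowest value at -1.91 and Nes the highest at 0.65, and Hopx, at a fitted 7.74, is not drawn.

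The sequences before the start sites are shown for the 3 members called in these data, of which Hes5 is a classical Notch target. Whether Notch has a part in any of these calls was not tested. The sequences are from RefSeq (GRCm38.p6), where 28 of the 33 members had an entry. In each, the 250 bases before the start were searched on both strands for TGGGAA, the core bound by the Notch partner RBPJ, and the first 200 of them, which end at -51 from the start, are printed 5′ to 3′ on the strand of the gene, with matches in capitals. The Hes5 window is chr4:154960673-154960872, plus strand, the Fabp7 window chr10:57784673-57784872, plus strand, and the Hopx window chr5:77115174-77115373, minus strand.
Hes5: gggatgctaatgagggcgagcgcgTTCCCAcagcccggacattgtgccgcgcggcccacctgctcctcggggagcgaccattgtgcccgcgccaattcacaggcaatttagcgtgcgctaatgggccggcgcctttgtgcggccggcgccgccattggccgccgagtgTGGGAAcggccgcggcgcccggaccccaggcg
Fabp7: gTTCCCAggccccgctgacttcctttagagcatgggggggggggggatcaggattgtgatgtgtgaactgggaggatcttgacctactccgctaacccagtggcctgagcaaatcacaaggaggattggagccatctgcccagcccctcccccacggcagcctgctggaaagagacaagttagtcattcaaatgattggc
Hopx: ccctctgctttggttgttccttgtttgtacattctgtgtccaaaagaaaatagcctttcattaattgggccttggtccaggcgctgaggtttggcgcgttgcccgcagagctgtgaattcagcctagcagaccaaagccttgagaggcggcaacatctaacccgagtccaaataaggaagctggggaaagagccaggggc

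Hes5 held 2 matches, from -226 to -221 and from -82 to -77, and Fabp7 held 1, from -249 to -244. The Hopx window held none. The Hes5 window overlaps an exon of Gm20421, a gene on the other strand. The core stood in at least 1 window of 8 of the 28 members (28.6%) and in 21.6% of all 32851 promoters of this length. The first share is of members, with 36 windows among them, and the second is of promoters. A longer form, GTGGGAA, matched 2 times in the Hes5 window and 0 times in that of Fabp7. It stood in a window of 4 of the 28 members (14.3%) and in 5.42% of all promoters. A match of 6 letters is a description and not a site, and which start the reads came from is not known. Another Hopx start in RefSeq, not shown, had no match in its window either.

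Glutamate uptake and metabolism was covered by 3 members, of which Slc1a3 and Slc1a2 were lower and Glul was higher in Pd1cKO-Tie2 samples. Slc1a3, the glutamate transporter GLAST of radial glia (ENSMUSG00000005360, chromosome 15 of GRCm38, 8634124 to 8710764), was at 393 and 390 CPM in Pd1fl/fl and at 242 and 211 CPM in Pd1cKO-Tie2 libraries. The Pd1fl/fl libraries lay within 1.01-fold of each other, and both Pd1cKO-Tie2 libraries were below them. The mean was 392 ± 2.02 CPM in controls and 227 ± 22.0 CPM in Pd1cKO-Tie2 samples (SD, n = 2), 57.9% of the control level. This was a log2 fold change of -0.79 (standard error 0.15; edgeR adjusted p = 0.735), rank 17 of the tested genes by p. It lay between -0.88 and -0.69 with each library left out, and the DESeq2 adjusted p was 0.00287. Slc1a2, the transporter GLT-1 of more mature astrocytes, was at 57.9 and 29.7 CPM in Pd1fl/fl and at 29.8 and 9.89 CPM in Pd1cKO-Tie2 libraries. Here the genotypes overlapped by a narrow margin, and the libraries of a genotype differed by 1.95-fold and 3.01-fold. Its log2 fold change was -1.14 (standard error 0.61) and moved from -2.14 without Pd1cKO-Tie2 library 1 to -0.55 without library 2. Glul, glutamine synthetase, which endothelial cells also express, was at 152 and 160 CPM in Pd1fl/fl and at 200 and 193 CPM in Pd1cKO-Tie2 libraries. It was thus higher in both Pd1cKO-Tie2 libraries, with a log2 fold change of 0.33 (standard error 0.16). A pseudogene limits this value, since 11.9% of the 50-base stretches of Glul also occur in other genes, mainly Glns-ps1.

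The progenitor transcription factors moved in different directions. Hes5, a Notch-induced repressor of neuronal genes (ENSMUSG00000048001, chromosome 4, 154960923 to 154962371), was at 27.7 and 41.2 CPM in Pd1fl/fl and at 17.5 and 14.7 CPM in Pd1cKO-Tie2 libraries. The genotypes did not overlap, and the mean fell to 46.7% of the control level. The log2 fold change was -1.10 (standard error 0.35; edgeR adjusted p = 0.735). The call was lost without Pd1fl/fl library 2, where the value was -0.78, and without Pd1cKO-Tie2 library 2, where it was -0.98. Hes5 shares 433 exon bases with Gm20421 on the other strand, and the use of strand in counting is not given in the sources used here. Pax6, a master regulator of cortical radial glia, was at 23.1 and 37.1 CPM in Pd1fl/fl and at 13.3 and 19.8 CPM in Pd1cKO-Tie2 libraries, with a log2 fold change of -0.86 (standard error 0.41). Sox9, which drives the switch to gliogenesis and had the highest mean of these factors, was at 83.2 and 166 CPM against 97.0 and 79.8 CPM. Pd1fl/fl library 2 alone stood high, and without it the log2 fold change of Sox9 went from -0.49 to 0.09. Sox2, the general neural stem cell factor, had between 31 and 88 counts in a library and did not separate the genotypes (2.50 and 2.61 against 3.68 and 2.27 CPM).

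Hopx, a small homeodomain protein that marks outer and quiescent radial glia (ENSMUSG00000059325, chromosome 5, 77086988 to 77115121), went the other way. Its reads numbered 0 and 1 in the Pd1fl/fl libraries, against 358 and 43 in the Pd1cKO-Tie2 libraries (15 and 3.15 CPM). Over both libraries of each genotype the ratio was 307, with a 95% exact counting interval of 54.7 to 12100, which is wide because it rests on 1 control read. Against the same controls the ratio was 430 for Pd1cKO-Tie2 library 1 alone and 90.5 (15.4 to 3650) for library 2 alone. These intervals cover counting error only and leave out the spread between libraries. Both Pd1cKO-Tie2 libraries were far above the controls and differed from each other by 4.76-fold. The edgeR adjusted p was 0.735 and the DESeq2 adjusted p 0.00765, and the call was lost without Pd1cKO-Tie2 library 1. Because Hopx passed the filter only through the Pd1cKO-Tie2 libraries, its p-values and call describe where it was detected. They support no direction of the members. Hopx shares 412 exon bases with Hopxos on the other strand, and without the strand the reads of these genes cannot be told apart. The same limit holds for Glul, Tnc, Slc1a2, Ttyh1, Pla2g7 and Fgfr3, described below or above. They share from 116 (Glul) to 998 (Fgfr3) exon bases with a gene on the other strand, and Pla2g7 shares 319.

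Of the intermediate filaments and Fabp7, only Fabp7 passed the criterion in the edgeR fit. Fabp7, the brain lipid-binding protein BLBP of radial glia (ENSMUSG00000019874, chromosome 10, 57784881 to 57788450), was at 167 and 201 CPM in Pd1fl/fl and at 97.8 and 84.5 CPM in Pd1cKO-Tie2 libraries. The genotypes lay well apart, and their means were 184 ± 23.8 and 91.1 ± 9.41 CPM (SD, n = 2). The fall was -1.01 on the log2 scale (standard error 0.19; edgeR adjusted p = 0.735), rank 19 by p. The DESeq2 adjusted p was 0.00523. Fabp7 crossed the 2-fold limit narrowly and fell short of it without Pd1fl/fl library 2 (-0.87) and without Pd1cKO-Tie2 library 2 (-0.91). Gfap, the filament of mature astrocytes and neural stem cells, was at 48.8 and 48.4 CPM in Pd1fl/fl and at 26.2 and 24.3 CPM in Pd1cKO-Tie2 libraries. It had the closest libraries of these genes in both genotypes, and its log2 fold change was -0.95 (standard error 0.26; edgeR adjusted p = 0.735). Nes, the filament nestin of neural progenitors and of young endothelial cells, was instead higher, at 217 and 285 CPM in Pd1cKO-Tie2 against 198 and 122 CPM in Pd1fl/fl libraries (log2 fold change 0.65, standard error 0.28). Its call was gained without Pd1fl/fl library 1 (1.04). Vim, vimentin, which endothelial and other mesenchymal cells express strongly, was at 247 and 214 CPM in Pd1fl/fl and at 246 and 277 CPM in Pd1cKO-Tie2 libraries, and these ranges overlapped.

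The 5 end-foot and membrane proteins all had fold changes below 0 in the full fit, from -0.67 to -0.22 on the log2 scale. Gja1, the gap junction protein connexin 43, was the most abundant, at 150 and 224 CPM in Pd1fl/fl and at 146 and 173 CPM in Pd1cKO-Tie2 libraries, and it overlapped. Hepacam, an adhesion protein that places Mlc1 at astrocyte junctions, was at 47.2 and 49.9 CPM against 32.7 and 35.5 CPM, with a log2 fold change of -0.51 (standard error 0.25). Ttyh1, a chloride channel family protein of neural stem cells, was at 42.5 and 53.2 CPM against 32.6 and 27.5 CPM. In these 2 genes both Pd1cKO-Tie2 libraries were below both controls, by amounts that did not pass the criterion. Mlc1, the membrane protein mutated in a leukodystrophy with cysts, was at 96.6 and 154 CPM against 111 and 49.8 CPM. Aqp4, the water channel of the end-feet, was the least steady, at 76.0 and 35.1 CPM in Pd1fl/fl and at 78.1 and 17.4 CPM in Pd1cKO-Tie2 libraries. Its Pd1cKO-Tie2 libraries differed by 4.50-fold, and its log2 fold change of -0.22 became 0.50 without Pd1cKO-Tie2 library 2.

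The extracellular matrix members held the largest share of the reads. Ncan, the proteoglycan neurocan of perinatal brain matrix, was at 1296 and 1438 CPM in Pd1fl/fl and at 1102 and 725 CPM in Pd1cKO-Tie2 libraries. Both Pd1cKO-Tie2 libraries were below the controls, with a log2 fold change of -0.58 (standard error 0.21; edgeR adjusted p = 0.753). The size of the difference rested on library 2, without which it was -0.31. Ptprz1, a receptor phosphatase of radial glia and oligodendrocyte precursors, was at 315 and 503 CPM against 243 and 192 CPM. This gave a log2 fold change of -0.91 (standard error 0.26; edgeR adjusted p = 0.735; DESeq2 adjusted p = 0.0299). It lay between -1.20 and -0.53 with each library left out. Tnc, the matrix protein tenascin C of the stem cell niche, was at 75.9 and 101 CPM against 62.9 and 25.2 CPM. Bcan (brevican) and Cspg5 (neuroglycan C) overlapped, since Pd1cKO-Tie2 library 1 was above both controls (90.4 and 44.1 CPM) and library 2 below them (34.0 and 21.6 CPM). Sparcl1, a secreted protein of the SPARC family that brain endothelial cells also make, was the most abundant member and was higher in Pd1cKO-Tie2 samples. It was at 4922 and 4672 CPM in Pd1fl/fl and at 5200 and 6461 CPM in Pd1cKO-Tie2 libraries (log2 fold change 0.28, standard error 0.12), and it alone took 43.3% to 61.7% of the summed level of the 33 genes.

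Of the 6 genes of metabolism, lipid transport and metal binding, 5 were below 0. Apoe, the lipid carrier of astrocytes and microglia, led them at 1036 and 1454 CPM in Pd1fl/fl and at 774 and 1098 CPM in Pd1cKO-Tie2 libraries. The ranges overlapped. Apoe was highest in Pd1fl/fl library 2 and lowest in Pd1cKO-Tie2 library 1, as was the summed level of 12 microglial markers, which was 2138 and 2611 CPM in Pd1fl/fl and 805 and 1807 CPM in Pd1cKO-Tie2 libraries. All 12 of these markers were detected in every library. They include Ptprc, which encodes CD45, at 86.4 and 139 CPM against 54.6 and 67.9 CPM, although the study's cell isolation labels CD31 and CD45 before sorting. Among the members, Pax6, Hepacam, Gja1, Dbi, Mt3 and Pla2g7 were also highest in Pd1fl/fl library 2 and lowest in Pd1cKO-Tie2 library 1. The part of microglial RNA in the Apoe difference was not tested. Aldoc, the brain isoform of aldolase, was at 91.2 and 111 CPM against 71.5 and 49.4 CPM (log2 fold change -0.74, standard error 0.26; edgeR adjusted p = 0.753). Pla2g7, an enzyme that degrades platelet-activating factor, was at 57.1 and 79.7 CPM against 29.7 and 45.0 CPM (log2 fold change -0.87, standard error 0.32; edgeR adjusted p = 0.753). In both genes the genotypes did not overlap, and the differences stayed under 2-fold. Mt3, the brain metallothionein, was at 4.93 and 6.06 CPM against 2.26 and 2.34 CPM. Its libraries held only 32 to 86 counts, and the log2 fold change of -1.25 had a standard error of 0.84. Dbi, the acyl-CoA binding protein, was 82.1% of its control level, and Clu, the chaperone clusterin, was 103% of it with overlapping libraries.

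The receptors and the secreted factor were scarce apart from Ednrb. Ednrb, an endothelin receptor of progenitors and astrocytes, was at 263 and 175 CPM in Pd1fl/fl and at 165 and 172 CPM in Pd1cKO-Tie2 libraries, a log2 fold change of -0.37 (standard error 0.23). Pd1fl/fl library 2 was close to both Pd1cKO-Tie2 libraries, and without Pd1fl/fl library 1 the difference was -0.05. Fgfr2, a receptor for fibroblast growth factors, had the lowest fitted value of the members, -1.91 (standard error 0.89). It was at 11 and 31 CPM against 9.12 and 1.90 CPM, so that the genotypes came close to overlapping. The value was -3.44 without Pd1cKO-Tie2 library 1, -2.47 without Pd1fl/fl library 1, -1.19 without Pd1cKO-Tie2 library 2 and -0.98 without Pd1fl/fl library 2. Fgfr2 met the criterion in the first and second of these fits, with DESeq2, without a filter and with at least 10 counts in every library. Fgfr2 also shares 314 exon bases with Ctbp2 on the same strand, where reads could count for either gene. Fgfr3, a related receptor of radial glia, was at 7.77 and 5.49 CPM against 2.09 and 9.38 CPM. Metrn, the secreted factor meteorin, was barely detected, with 11 and 7 reads in controls and 0 and 3 reads in Pd1cKO-Tie2 libraries. It did not pass the filter, was not tested, and shares 1826 exon bases with Gm26694 on the other strand.

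A group of 10 members, Vim, Nes, Sparcl1, Apoe, Clu, Dbi, Glul, Gja1, Ednrb and Fgfr2, was set apart from general knowledge as also expressed by other cells of the brain. Results of these data were known when the groups were drawn, and the other 23 members are not free of such genes, since Ptprz1 is known from oligodendrocyte precursors too. The contrast between the groups is therefore a description and supports nothing. Of the 10, 5 were above and 5 below 0, with a median log2 fold change of -0.09. Of the 22 tested among the other 23, 20 were below 0, with a median of -0.70, and Sox2 and Hopx were the exceptions. In 13 of the 22 both Pd1cKO-Tie2 libraries lay below both controls (background 18.1%). Summed over the 23, the level was 3034 and 3572 CPM in Pd1fl/fl and 2445 and 1684 CPM in Pd1cKO-Tie2 libraries, or 62.5% of the control mean. These sums did not overlap, and Ncan made up 40.3% to 45.0% of them. The sums stood at 59.5% of control without Ncan and at 63.8% without Ptprz1, where 19 of 21 tested members were below 0 with a median of -0.67. Summed over all 33 genes, Pd1cKO-Tie2 samples were at 95.6% of control (10478 ± 426 and 10020 ± 638 CPM, SD, n = 2), a difference smaller than the SD of the Pd1cKO-Tie2 libraries.

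The differences between libraries of a genotype were of similar size to those between genotypes for part of the members. On the scale of log2(CPM + 0.5), the median difference was 0.31 between the Pd1fl/fl libraries, 0.45 between the Pd1cKO-Tie2 libraries and 0.63 between the genotype means, against 0.45, 0.43 and 0.33 over all tested genes. Each genotype mean averages 2 libraries, so differences between means are not like for like with those between single libraries. The values over all tested genes serve as the reference. The genotype difference exceeded both differences within a genotype in 15 of the 32 tested members and in 24.1% of all tested genes. Slc1a3, Fabp7, Gfap, Hepacam, Mt3 and Hes5 were among them. So was Hopx, which passed the filter only through the Pd1cKO-Tie2 libraries. Pd1cKO-Tie2 library 2 was the lowest of the 4 libraries in 18 of the 32 tested members (background 23.9%), and Pd1cKO-Tie2 library 1 in 9. Within Pd1cKO-Tie2, 9 members differed by at least 2-fold between the libraries, a share near the 27.7% of all tested genes. They were Slc1a2, Hopx, Aqp4, Mlc1, Tnc, Bcan, Cspg5, Fgfr2 and Fgfr3, and all of them but Fgfr3 were lower in library 2.

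**Figure D3:**
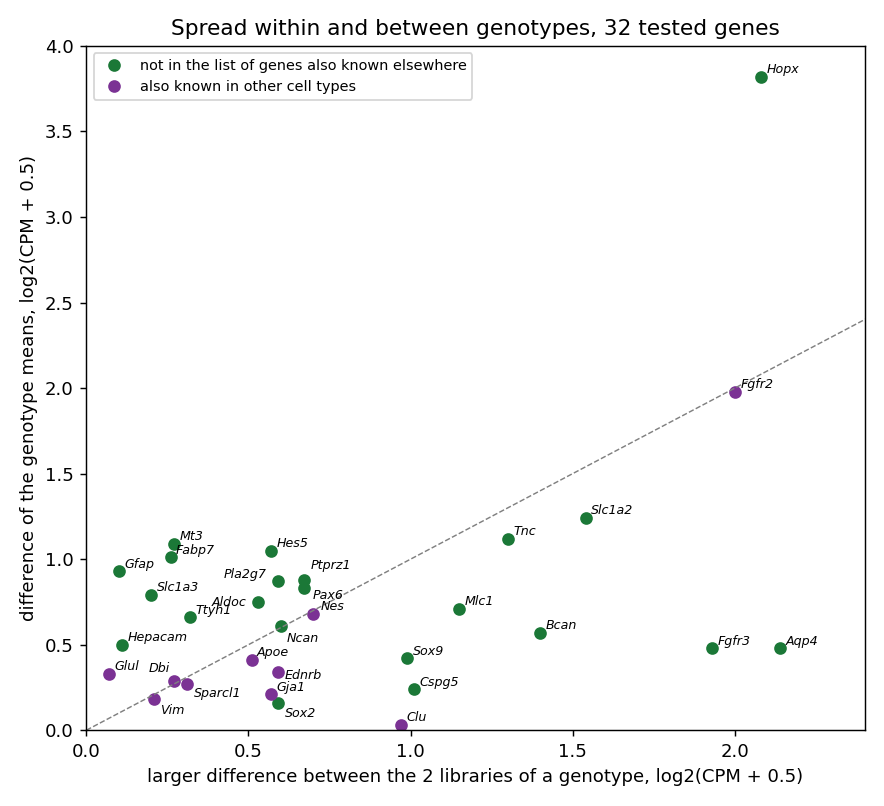
For each of the 32 tested genes, the difference of the genotype means against the larger of the differences between the 2 libraries of a genotype, both in log2(CPM + 0.5), with a dashed line where they are equal. Slc1a3, Fabp7, Gfap, Hes5 and Hopx lie above the line, and Aqp4, Fgfr3, Bcan and Clu lie far below it.

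Other genes of radial glia and astrocytes, from a separate list, were compared in the same fit. The list was also chosen with earlier results of these data known, so it is no independent check of the members. Of the 50 genes of this list 49 were listed and 45 were tested, and 36 of the 45 were below 0, with a median log2 fold change of -0.29. The edgeR fit called 0 in either direction, with an unadjusted p under 0.05 for 3 of the 45 (Aldh1l1, Ptn and Nfia), a share near the 6.39% of all tested genes. DESeq2 called 3 lower, with a background of 2.93% of the genes it tested. Both Pd1cKO-Tie2 libraries lay below both controls in 16 of the 45 (background 18.1%) and above them in 1, Lfng. Aldh1l1, the folate enzyme that marks astrocytes most widely, was at 76.4 and 59.3 CPM in Pd1fl/fl and at 43.8 and 24.0 CPM in Pd1cKO-Tie2 libraries. Its log2 fold change was -1.0 (standard error 0.36; edgeR adjusted p = 0.753), just short of 2-fold. Ptn, the growth factor pleiotrophin that binds Ptprz1, was at 282 and 305 CPM against 204 and 205 CPM (log2 fold change -0.52, standard error 0.15). Nfia, a factor that starts gliogenesis, was at 371 and 322 CPM against 249 and 259 CPM (log2 fold change -0.45, standard error 0.15). S100b, a marker of mature astrocytes, had 0 CPM in 3 of the 4 libraries and 0.251 CPM in Pd1cKO-Tie2 library 1. Atp1b2, Prom1 and Prdx6 were within 0.07 of 0 on the log2 scale.

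The glial transcripts were set beside markers of other cells in the same samples. The 20 endothelial markers were all above 0, with a median log2 fold change of 0.34, and both Pd1cKO-Tie2 libraries lay above both controls in 20 of 20 (background 17.7%). Their sum was 19558 and 18607 CPM in Pd1fl/fl against 23723 and 24725 CPM in Pd1cKO-Tie2, and the 23 glial members went from 0.155 and 0.192 of the endothelial sum in Pd1fl/fl to 0.103 and 0.0681 of it in Pd1cKO-Tie2 libraries. The 19 neuronal markers had a median of -0.14, and their sums overlapped (1291 and 1736 CPM against 1526 and 1249 CPM). The 12 microglial markers were all below 0 with a median of -0.86, and each was lowest in Pd1cKO-Tie2 library 1. The sum of the 23 glial members was lowest in library 2, as were 16 of them singly, whereas 6 were lowest in library 1. The oligodendrocyte lineage markers had a median of -0.04. Those of intermediate progenitors had a median of -0.31 and those of pericytes and smooth muscle -0.32. A fall of the sum without overlap was thus not particular to the 23 glial members. It was also seen for microglial markers (55% of control), intermediate progenitor markers (79.6%) and the other glial genes (81.5%). How far the share of these other cells in each sort sets the glial differences was not tested.

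**Figure D4:**
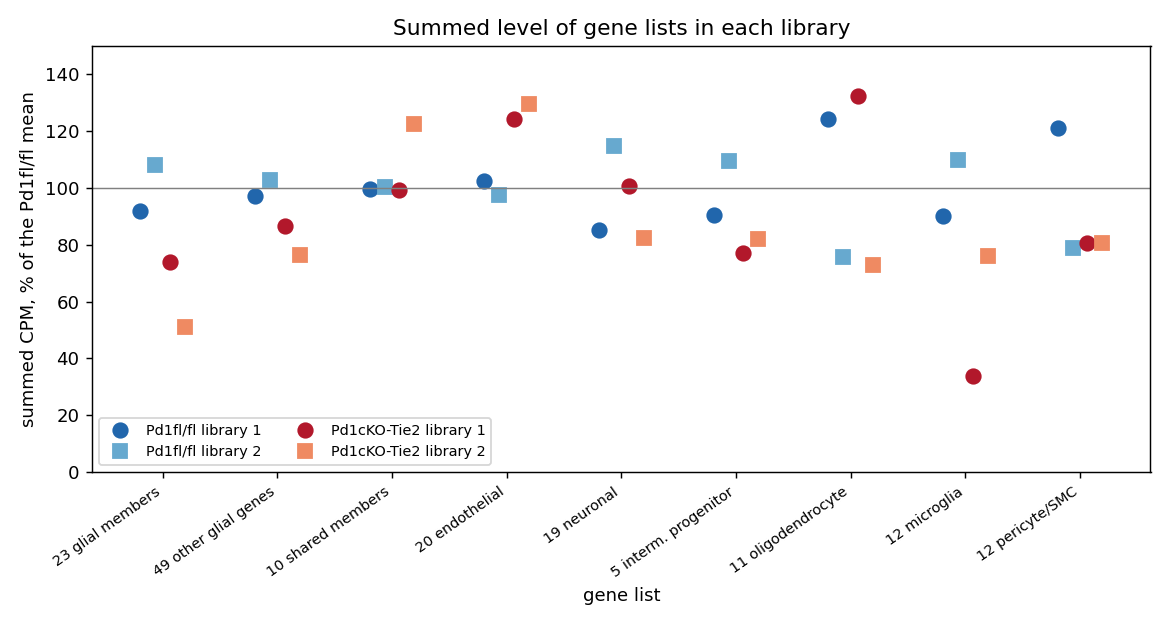
Summed CPM of each gene list as a percent of its mean in Pd1fl/fl libraries, with 1 point per library. The 23 glial members stand at 62.5% of control on average and do not overlap between genotypes. The microglial markers (55%), the intermediate progenitor markers (79.6%) and the other glial genes (81.5%) also fall without overlap. The 20 endothelial markers stand at 127%, and the neuronal sums overlap.

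Levels between genes were compared per kilobase of exon, as the mean over the 4 libraries. Sparcl1 was the highest at 1809 CPM per kilobase, followed by Apoe at 510, Ncan at 158 and Fabp7 at 110. Each of these ranges lay apart from the next but for Ncan (101 to 200) and Fabp7 (67.6 to 161), which overlapped. Glul, Vim, Dbi and Ednrb followed between 45.4 and 53.1, and their ranges overlapped. Slc1a3 and Mlc1 were near each other at 36.2 and 36.8. Hes5 stood at 18.5, Gfap at 8.75, Aqp4 at 8.28 and Slc1a2 at 2.42 CPM per kilobase. Fgfr2, Fgfr3 and Metrn were the lowest, at 1.28, 0.864 and 0.0978.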

How the data were processed

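The authors deposited 4 tables, each setting 1 Pd1cKO-Tie2 beside 1 Pd1fl/fl library. The counts in them are whole reads per gene, not normalized. The CPM columns the authors deposited are counts divided by the library total and served only to recover that total. The submitters' processing notes name TopHat2 2.0.12, Bowtie2 2.2.3, HTSeq 0.6.0 and mm9, but the positions are those of GRCm38 (90.3% equal GENCODE M21). The authors' fold changes and p-values were not used. Samples were grouped by genotype from the labels. The tables were joined by gene identifier, 10 broken lines were skipped, and a gene missing from all tables of a library counted as 0. Genes are listed with a count in both libraries or at least 5 in 1 of them.

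All 15909 genes passing filterByExpr were fitted with edgeR 4.0.16 (quasi-likelihood F test, TMM, no covariate; R 4.3.3), with Benjamini-Hochberg adjustment over them. Standard errors are the fold change over the root of F. The fit was tested on simulated data. Alternatives were DESeq2 1.42.0, limma-voom (limma 3.58.1), other scalings and filters, and leaving out each library. Total counts were 13715837 to 24147311 per library and set the counting error. The standard errors also rest on the spread between libraries of a genotype. Values are printed for called members, the leading member of each role, the 4 largest rises and falls and members under the filter, and for others where a comparison needs them. Members and lists were chosen with earlier results of these data known.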

Additional observations from a re-analysis of the deposited data

How the results depend on the processing

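The median log2 fold change of the members kept its sign under all settings run, between -0.693 and -0.453 with a library left out, and was -0.705 without the members known from other cell types. Higher calls among the members were 0 with at least 10 counts in every library, a filter that drops Hopx (1.11% of all genes tested), and with limma-voom (0.861%), and 0 to 2 with a library left out. Lower calls were 4 with that filter (2.65% of all genes tested), 1 with limma-voom (2.31%), and 1 to 10 with a library left out. Of the other glial genes, lower calls were 2 under RLE (2.64% of all genes tested) and library size scaling (2.94%), 1 under upper quartile scaling (2.65%), without a filter (2.21%) and with limma-voom, 3 with DESeq2 (2.93%) and with the stricter filter, and 1 to 6 with a library left out, which also gave 0 to 1 higher call and a median of -0.510 to -0.186. The summed level, a log2 ratio of -0.064, was -0.678 without the members known from other cells, -0.648 when Ptprz1 was left out as well, -0.411 as a ratio to the endothelial sum, and -0.391 without Sparcl1, Apoe and Ncan. The settings without Ptprz1 and without these 3 were chosen after seeing the data. It was -0.131 to -0.001 with a library left out.

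Of 351 values of single members, 311 kept their sign and call, 21 gained a call, 7 lost it and 12 changed sign. With a library left out, the log2 fold change ran from -0.16 to 0.53 for Sox2, -0.90 to 0.09 for Sox9, -1.67 to 0.50 for Aqp4, -0.49 to 0.09 for Gja1, -1.28 to 0.13 for Bcan, -0.76 to 0.27 for Cspg5, -0.51 to 0.46 for Clu and -1.66 to 0.51 for Fgfr3. Clu was at -0.01 under library size scaling. A fit with a lone library in a genotype assumes that it varies like the other genotype, and the stricter filter tests fewer genes; otherwise the cause was not tested. No paired analysis was possible because the labels of the genotypes share only 1 replicate number.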
